A study of Canis lupus familiaris with 4 samples.

Results

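The genes described here encode the enzymes that build, sulfate and trim glycosaminoglycans, and 36 of the 11277 genes in the count tables belong to them. Their symbols alone decide membership, and the set of families was chosen with earlier results of these data known. They comprise 4 genes of the linker that joins each chain to its core protein, 5 of sugar precursors and the sulfate donor, 6 of the chondroitin and dermatan branch, 15 of the heparan branch, 4 of the hyaluronan branch, and 2 of related sulfotransferases and glucuronyltransferases. Of 70 symbols listed for these families, the other 34 were not analysed here, among them CHSY1, CHSY3, HAS1, NDST2, HS2ST1 and CHST3. Every gene in the tables has at least 128 counts in 1 library or more. NDST4, B3GAT3 and B4GALT7 reach that number only in carcinoma, and HS3ST1, HS3ST3A1, PAPSS2 and B3GAT2 only in control, so these 7 are present through the counts of 1 tissue. The number is one of raw counts, and after scaling for depth B3GAT3, B4GALT7 and PAPSS2 overlapped between the tissues.

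The libraries T1 and T2 hold RNA of mammary ductal carcinoma, and C1 and C2, the control, hold that of mammary tissue without tumor taken next to it, from 6 female dogs of several breeds, not castrated, aged 5 to 14 years, with early-stage disease. Each library is a pool of 3 dogs, and by the study's account C1 and T1 share their dogs, as do C2 and T2. The n of 2 is thus one of pools, and differences between single dogs are not seen. The control was taken beside the tumor in the same mastectomy, so it is not tissue of healthy animals.

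Glycosaminoglycans are long sugar chains of the cell surface and the extracellular matrix. Chondroitin and heparan sulfate start from the same xylose-primed linker on a core protein and part when the first sugar after the linker is added, whereas hyaluronan is made at the plasma membrane without a core protein or sulfate. Sulfate groups placed on the chains decide which growth factors and matrix proteins they hold. In the mammary gland heparan sulfate lies in basement membranes and on epithelial cells, and chondroitin sulfate is typical of stroma and, in dogs, of the cartilage-like matrix that some mammary tumors lay down.

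Totals ran from 3236218 counts in T2 to 35496260 in T1, with 4027367 in C2 and 32352002 in C1, so pool 2 limits the precision for weak genes. The enzyme genes together took 0.309% of counts in C1 and 0.355% in C2, against 0.324% in T1 and 0.351% in T2, and these shares overlap between the tissues. Levels are counts per 1000000 counts of a library (CPM) after TMM scaling, at which 1 count is worth 0.0339 CPM in C1 and 0.232 in C2, against 0.0286 in T1 and 0.297 in T2. A gene counted as called when its adjusted p was under 0.05 (edgeR, Benjamini-Hochberg over all genes) and its change was at least 2-fold, as higher or lower by the level in carcinoma. The pooling hides the source of the RNA, so fewer cells of a type and less RNA per cell cannot be told apart. Of the 8 listed epithelial markers 4 were measured (KRT5, KRT19, CDH1 and EPCAM), with a summed level of 1222 to 1252 CPM in control and 1365 to 1637 CPM in carcinoma. Of these only KRT5, a basal keratin gene, did not overlap between the tissues, with 164 CPM in C1 and 259 in C2, against 353 in T1 and 572 in T2. It was not called by edgeR (adjusted p = 0.0884) but was called higher by DESeq2 and with a replicate block by pool. None of the 5 adipocyte markers was analysed here.

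Of the 36 enzyme genes 31 (86.1%) lay within 2-fold of control, as did 85.8% of all genes. NDST4 was called higher in carcinoma, 1 of 36 (2.78%), where 4.62% of all genes were. HPSE2, HS3ST1 and CSGALNACT1 were called lower, 3 of 36 (8.33%), where 5.24% of all genes were. In either direction 4 of 36 (11.1%) were called, near the 9.86% of all genes. Another 5 passed on the adjusted p with changes under 2-fold, namely CHST11, DSE, PAPSS1 and CHST10 on the higher side and UST on the lower. With any fold change accepted, a rule added after the values had been seen, 5 of 36 (13.9%) were higher, where 6.93% of all genes were, and 4 of 36 (11.1%) were lower, where 6.96% of all genes were, which makes 9 of 36 (25%) against 13.9% in either direction. The other 27 did not pass, 11 with a fold change above 0 and 16 with one below 0 on the log2 scale. The median log2 fold change was −0.12 over the enzyme genes and 0.03 over all genes. With the pool as a replicate block, which removes the offset between pools, 1 of 36 was called higher (7.09% of all genes) and 4 of 36 lower (6.83% of all genes). These are 5 in all (13.9%, as over all genes), and HS3ST3A1 was the addition. The pools differ in dogs and in depth alike, which cannot be told apart as sources of the offset. The block fit leaves 1 residual degree of freedom, against 2 without it, and its common dispersion was 0.00216, against 0.0508. From so few pools its small adjusted p values, here and below, do not measure the spread between single dogs. DESeq2 called the same 4 genes as edgeR, 1 higher (5.08% of all genes) and 3 lower (5.61% of all genes).

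**Figure D1:**
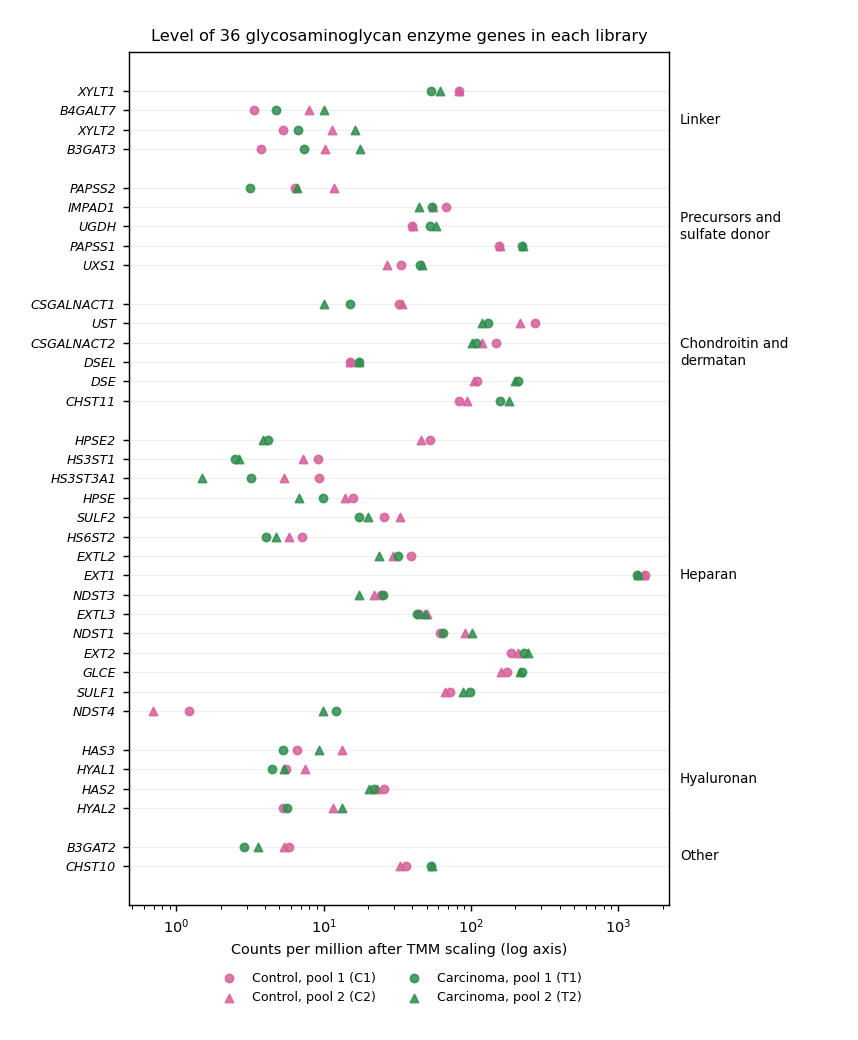
Level of each of the 36 enzyme genes in the 4 libraries, in CPM after TMM scaling on a log axis, with 1 symbol per library (control pink, carcinoma green, circles for pool 1, triangles for pool 2) and genes grouped by branch. HPSE2 stands at 46.1 and 52.9 CPM in the controls and at 3.87 and 4.18 CPM in the carcinomas, while EXT1 stays between 1346 and 1513 CPM in all 4.

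**Figure D2:**
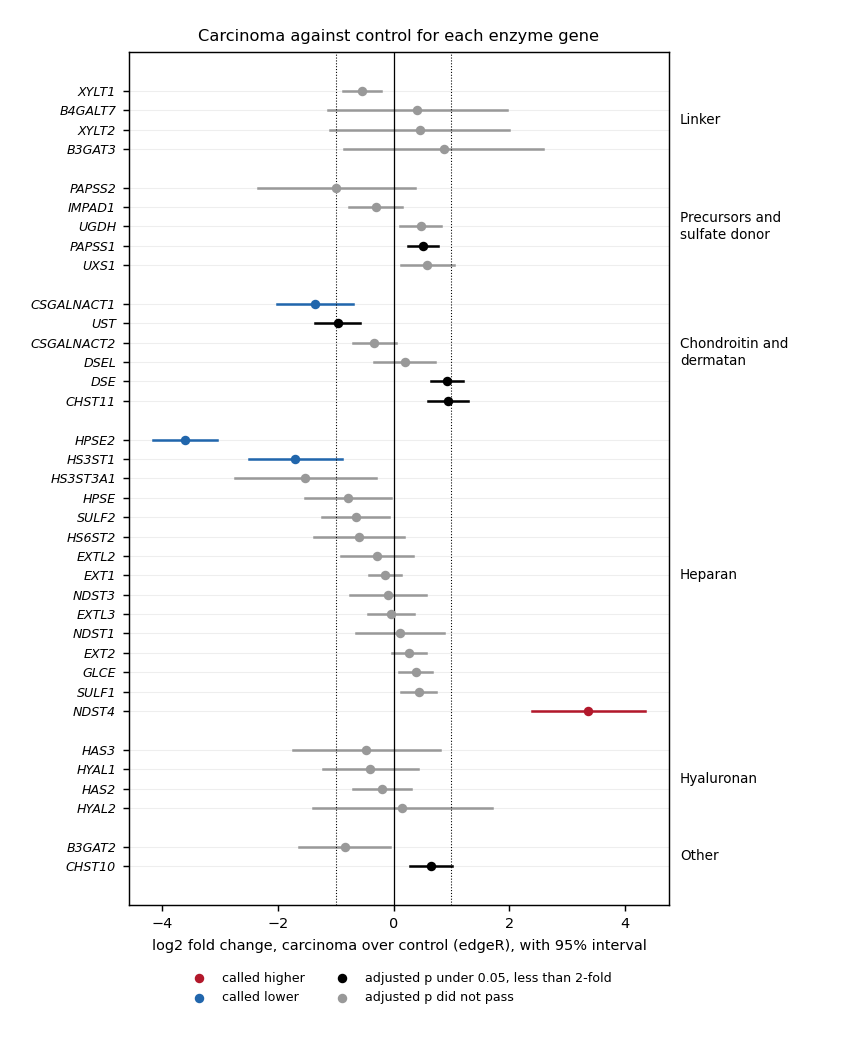
Log2 fold change between carcinoma and control (above 0 where carcinoma is higher) for the same genes from edgeR, with its 95% interval as a bar and dotted lines at 2-fold in each direction (red called higher, blue called lower, black passed under 2-fold, grey did not pass). HPSE2 at −3.60 and NDST4 at 3.36 lie apart from the other genes, and the intervals of XYLT2, B4GALT7 and HYAL2 reach past 2-fold in both directions.

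In the heparan branch 1 of 15 measured genes was called higher (4.62% of all genes were), 2 were called lower (5.24% of all genes were) and 12 did not pass. The largest fall among the 36 enzyme genes was that of HPSE2, which encodes a relative of heparanase that does not cut heparan sulfate and can restrain the enzyme that does. HPSE2 had 52.9 CPM in C1 and 46.1 in C2, against 4.18 in T1 and 3.87 in T2. Both carcinoma pools lay far below both controls, and the pools of each tissue lay close together. Its log2 fold change was −3.60 (standard error 0.21, 95% interval −4.15 to −3.05, adjusted p = 0.00195), a 12.2-fold fall, and it was called under all 9 alternatives, with values from −3.72 to −3.55. Across its RefSeq span HPSE2 overlaps 7 other RefSeq features, 5 of them long noncoding RNAs. The deposited length has a ratio of 0.394 to that span, so some of these features may lie outside the counted model. The library kit was a stranded one, but the sources name different counters (HTSeq and featureCounts). None of them states the strand setting behind these counts, so reads of these features may be among those of HPSE2.

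HPSE, the gene of heparanase itself, which cuts heparan sulfate chains, had 15.7 CPM in C1 and 13.9 in C2, against 9.87 in T1 and 6.84 in T2. The carcinomas lay below the controls, but the change of −0.79 (95% interval −1.54 to −0.05, adjusted p = 0.154) did not pass. The ratio of HPSE counts to HPSE2 counts went from 0.298 and 0.302 in the controls to 2.36 and 1.77 in the carcinomas, a 6.82-fold shift on average. Since counts were not scaled for length, the ratio itself says nothing of which gene is the more abundant, and only its shift between libraries is of use.

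Markers of several cell populations were called lower, as HPSE2 was. All 4 measured striated muscle markers (TTN, CKM, ACTA1 and MB) were called lower, with a sum of 1765 to 2884 CPM in control and 21.1 to 27.1 CPM in carcinoma, and MB was at 0 in T2. Of the lymphatic endothelial markers 3 of 4 were lower (325 to 336 CPM summed in control, 82.5 to 99.3 CPM in carcinoma), of the blood endothelial markers 3 of 5 (589 to 632 CPM, then 279 to 282 CPM), and of the mast cell markers 3 of 4 (145 to 165 CPM, then 134 to 136 CPM, most of it KIT). Fibroblast markers were lower in 2 of 6 (7215 to 8103 CPM, then 2733 to 3566 CPM), T cell markers in 2 of 4 (24.3 to 31.2 CPM, then 9.52 to 9.84 CPM) and macrophage markers in 1 of 3 (375 to 405 CPM, then 236 to 244 CPM). With the replicate block 4 fibroblast and 4 T cell markers were lower, and the counts of the other lists in this paragraph were as without it. Of the markers lower with or without the block, ACTA1, MB, MS4A2, FCER1A, CD3E, CD3G and CD8A reach 128 counts only in control. They are thus in the count tables through control alone. Neither of the 2 measured B and plasma cell markers was called (303 to 379 CPM, then 292 to 363 CPM, 1 at an unadjusted p under 0.05 and 0 called by DESeq2). The part of these cells in the fall of HPSE2 or of the other genes named here was not tested.

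NDST4 encodes an N-deacetylase and N-sulfotransferase, an enzyme of the family that opens heparan chains to all later sulfation. It had 36 counts in C1 and 3 in C2, against 421 in T1 and 33 in T2. Only T1 reaches 128 counts, so the gene is in the count tables through carcinoma alone. In CPM these were 1.22, 0.695, 12.0 and 9.81, with a 95% Poisson interval of 0.143 to 2.03 in C2 and 6.76 to 13.8 in T2, which covers counting error only. Both carcinomas lay above both controls, and the intervals of the carcinomas did not reach those of the controls. The log2 fold change was 3.36 (standard error 0.38, 95% interval 2.39 to 4.34, adjusted p = 0.00690), a 10.3-fold rise. NDST4 was called in every alternative that tested it, from 3.13 to 3.92, and was not tested when 10 counts were asked of each library. In its RefSeq model it overlaps another protein-coding gene model.

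The 2 measured relatives of NDST4 did not pass the test. NDST1, the broadly used member of the family, had 61.6 CPM in C1 and 91.3 in C2, against 64.4 in T1 and 102 in T2, and the pools differed more than the tissues. Its log2 fold change was 0.11 (95% interval −0.64 to 0.87, adjusted p = 0.833). NDST3 had 24.5, 21.8, 25.4 and 17.2 CPM in the same order, a change of −0.10 (95% interval −0.75 to 0.56, adjusted p = 0.832). For each count of NDST3 there were 0.0499 counts of NDST4 in C1 and 0.0319 in C2, and 0.475 in T1 and 0.569 in T2. At a mean over the 4 libraries of 0.0229 CPM per kilobase of the deposited length, NDST4 nonetheless ranked 35 of the 36 enzyme genes. This rank depends on that length, which is 259 kilobases for NDST4 and 0.93 for HS3ST1. HS3ST1 ranked 1 at a mean of 5.38 CPM, where NDST4 had 5.94 CPM.

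HS3ST1 and HS3ST3A1 encode sulfotransferases that act late on heparan glucosamine, and both are in the count tables through control alone. HS3ST1, whose product makes the antithrombin-binding form of the chain, had 9.18 CPM in C1 and 7.19 in C2, against 2.49 in T1 and 2.68 in T2. The groups did not overlap, and the log2 fold change was −1.70 (standard error 0.31, 95% interval −2.50 to −0.90, adjusted p = 0.0274), a 3.24-fold fall. This call rested on all 4 libraries, since the adjusted p was 0.135 without C1, 0.0554 without C2, 0.128 without T1 and 0.0806 without T2. The deposited length of HS3ST1 is 930 bases, a ratio of 0.0306 to its RefSeq span. HS3ST3A1 had 9.35 CPM in C1 and 5.33 in C2, against 3.20 in T1 and 1.49 in T2, with 5 counts in T2. Its change of −1.52 (standard error 0.47, 95% interval −2.74 to −0.31, adjusted p = 0.109) did not pass without the replicate block and did with it (−1.57, adjusted p = 4.37e-11). With 1 library left out it ran from −1.05 without C1 to −2.39 without T1, and the adjusted p was 0.0843 to 0.433. HS6ST2, another heparan sulfotransferase gene, had a change of −0.59 (95% interval −1.37 to 0.18, adjusted p = 0.271).

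None of the chain-building genes of the branch passed the test. EXT1, a subunit of the enzyme complex that polymerises heparan sulfate, had 1513 CPM in C1 and 1498 in C2, against 1346 in T1 and 1365 in T2. It ranked 25 of 11277 genes by mean CPM and took 40.4% to 45.2% of all counts of the 36 enzyme genes. The carcinomas lay below the controls by little, a log2 fold change of −0.15 (95% interval −0.43 to 0.13, adjusted p = 0.422). EXT2, the partner subunit, had 187 CPM in C1 and 208 in C2, against 231 in T1 and 246 in T2, a change of 0.27 (95% interval −0.03 to 0.57, adjusted p = 0.210). Counts of EXT1 per count of EXT2 thus went from 8.08 and 7.20 in the controls to 5.83 and 5.56 in the carcinomas, a 1.34-fold shift. EXTL3, whose product adds the first sugar that commits a chain to heparan, differed by −0.04 (95% interval −0.44 to 0.36, adjusted p = 0.887), and EXTL2 by −0.29 (95% interval −0.91 to 0.33, adjusted p = 0.482).

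GLCE encodes the epimerase that turns glucuronic into iduronic acid in heparan. It had 176 CPM in C1 and 159 in C2, against 221 in T1 and 216 in T2, with both carcinomas above both controls, and its change of 0.38 (95% interval 0.09 to 0.67, adjusted p = 0.0977) did not pass. The extracellular sulfatases SULF1 and SULF2, which take sulfate off finished heparan chains, lay on opposite sides of control. SULF1 had 72.6 CPM in C1 and 66.5 in C2, against 98.6 in T1 and 88.9 in T2, a change of 0.43 (95% interval 0.12 to 0.74, adjusted p = 0.0839). SULF2 had 25.8 CPM in C1 and 32.9 in C2, against 17.3 in T1 and 19.9 in T2, a change of −0.66 (95% interval −1.23 to −0.08, adjusted p = 0.134). Neither passed alone. The log2 ratio of their counts was 1.49 in C1 and 1.02 in C2, against 2.51 in T1 and 2.16 in T2, and it differed by 1.01 between the tissues in pool 1 and by 1.14 in pool 2.

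In the chondroitin and dermatan branch 1 of 6 measured genes was called lower, where 5.24% of all genes were, and none higher, where 4.62% were (edgeR, 2 higher and 2 lower at an unadjusted p under 0.05, and 0 higher by DESeq2). The 6 genes nonetheless showed no overlap between the tissues, 3 above and 3 below control, where 57.6% of all genes showed none. CSGALNACT1, whose product adds the N-acetylgalactosamine that commits a chain to chondroitin, had 32.6 CPM in C1 and 34.1 in C2, against 15.1 in T1 and 10.1 in T2. The log2 fold change was −1.36 (standard error 0.26, 95% interval −2.01 to −0.70, adjusted p = 0.0293), a 2.56-fold fall. The call was lost without C1 (adjusted p = 0.0906), without C2 (0.0672) or without T2 (0.0552), at changes of −1.45, −1.33 and −1.14. CSGALNACT2, which encodes an enzyme of the same activity, had 147 CPM in C1 and 118 in C2, against 109 in T1 and 102 in T2, a change of −0.34 (95% interval −0.71 to 0.03, adjusted p = 0.209). For each count of CSGALNACT2 there were 0.222 and 0.288 counts of CSGALNACT1 in the controls and 0.139 and 0.0994 in the carcinomas.

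The genes that modify the finished chondroitin chain went both ways, with close replicates. CHST11 encodes the main sulfotransferase for the N-acetylgalactosamine of chondroitin and is known for its part in cartilage growth. It had 83.0 CPM in C1 and 93.9 in C2, against 158 in T1 and 182 in T2, a log2 fold change of 0.94 (standard error 0.13, 95% interval 0.60 to 1.29, adjusted p = 0.0129). Without C1 the adjusted p was 0.0641 at a change of 0.80, and without C2 the gene was called at 1.03 (adjusted p = 0.0171). DSE encodes the epimerase that turns chondroitin into dermatan sulfate. It had 110.2 CPM in C1 and 104 in C2, against 207 in T1 and 199.9 in T2, a change of 0.92 (standard error 0.11, 95% interval 0.65 to 1.20, adjusted p = 0.00741), and its adjusted p stayed at or under 0.0357 whichever library was left out. Its relative DSEL changed by 0.19 (95% interval −0.34 to 0.72, adjusted p = 0.588), with 15.2, 15.1, 17.3 and 17.2 CPM in C1, C2, T1 and T2. In RefSeq DSE overlaps WDR27, another protein-coding gene, and as the strand setting is not known, reads of WDR27 may be among those of DSE.

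UST, which encodes a sulfotransferase for the uronic acid of chondroitin and dermatan, went the other way. It had 270.5 CPM in C1 and 215 in C2, against 129.8 in T1 and 118 in T2, and both carcinomas lay well below both controls. Its log2 fold change was −0.97 (standard error 0.15, 95% interval −1.36 to −0.57, adjusted p = 0.0177), just short of 2-fold. Without C2 it was −1.12 (adjusted p = 0.00854) and without T1 −1.08 (adjusted p = 0.0312), so in both cases UST was called lower. Of the 8 cartilage markers 4 were called higher (ACAN, COL2A1, COL11A1 and HAPLN1), 5 with the replicate block, which added COMP. Their list summed to 149 to 159 CPM in control and 1879 to 2162 CPM in carcinoma. ACAN, COL2A1 and COMP are in the count tables through carcinoma alone. COL9A1, of the same list, went the other way and was not called. It had 31.8 CPM in C1 and 39.9 in C2, against 22.0 in T1 and 21.4 in T2, a change of −0.71 (adjusted p = 0.0858). The part of cartilage-like tissue in the values of CHST11, DSE, UST, CSGALNACT1 and NDST4 was not tested.

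**Figure D3:**
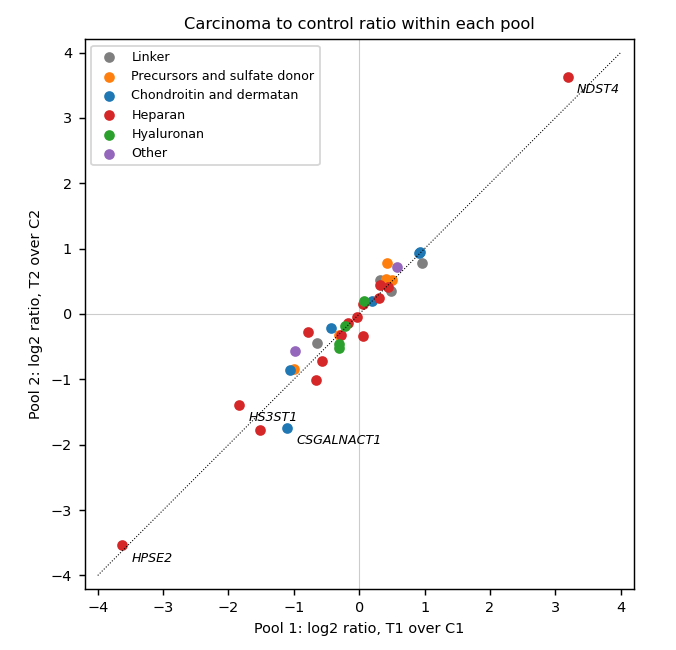
Log2 ratio of carcinoma to control within pool 1 (T1 over C1, x axis) and within pool 2 (T2 over C2, y axis) for the 36 enzyme genes, 1 point per gene, colored by branch, with the 4 called genes named and the diagonal dotted. The points follow the diagonal, and HPSE2 lies at −3.63 and −3.54 and NDST4 at 3.19 and 3.62.

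The pools hold different dogs, so each gives a value of its own. Within pool 1 and within pool 2 the carcinoma to control ratio had the same sign for 35 of 36 enzyme genes (97.2%), against 84.5% of all genes, and NDST3 was the exception (0.05 and −0.34). Across the 36 genes the ratios of the pools had a Pearson correlation of 0.976, a description over genes that share 4 libraries. CSGALNACT1 differed most of the called genes, with −1.10 in pool 1 and −1.74 in pool 2. Over all 4 libraries 11 of 36 (30.6%) had both carcinomas above both controls, near the 29.6% of all genes, and 15 of 36 (41.7%) had both below, where 28% of all genes did.

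Among the precursor and sulfate donor genes, none of 5 was called (edgeR, 3 higher and 0 lower at an unadjusted p under 0.05, and 0 by DESeq2). PAPSS1, which encodes a synthase of the universal sulfate donor, had 156 CPM in C1 and 159 in C2, against 221 in T1 and 227 in T2. Its log2 fold change was 0.51 (standard error 0.10, 95% interval 0.25 to 0.78, adjusted p = 0.0358), which passed on the adjusted p and was under 2-fold, and the adjusted p was 0.114 to 0.220 when any 1 library was left out. PAPSS2, the related synthase, known from cartilage, had 6.40 CPM in C1 and 11.8 in C2, against 3.15 in T1 and 6.54 in T2. The controls and carcinomas of PAPSS2 overlapped, since C1 and T2 lay close together, and the change of −0.99 (95% interval −2.33 to 0.36, adjusted p = 0.292) did not pass. Within each pool the counts of PAPSS1 per count of PAPSS2 were higher in carcinoma, 70.3 against 24.3 in pool 1 and 34.6 against 13.4 in pool 2.

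UGDH, which makes the glucuronic acid precursor, had 39.9 CPM in C1 and 40.3 in C2, against 53.1 in T1 and 58.3 in T2, a change of 0.47 (95% interval 0.12 to 0.82, adjusted p = 0.0953). UXS1, which turns that precursor into the xylose donor of the linker, had 33.4, 26.9, 45.0 and 46.4 CPM in the same order, a change of 0.59 (95% interval 0.13 to 1.04, adjusted p = 0.103). In both genes the carcinomas lay above the controls, and neither passed. IMPAD1, which encodes a phosphatase that clears the by-product of sulfation, changed by −0.31 (95% interval −0.76 to 0.15, adjusted p = 0.331).

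No gene of the linker was called among 4 measured (edgeR, 0 higher and 1 lower at an unadjusted p under 0.05, and 0 by DESeq2). XYLT1, which encodes a xylosyltransferase that starts every chain on its core protein, had 83.1 CPM in C1 and 83.0 in C2, against 53.3 in T1 and 61.3 in T2. The carcinomas lay below the controls, at a log2 fold change of −0.54 (standard error 0.13, 95% interval −0.87 to −0.22, adjusted p = 0.0534). XYLT2, the other xylosyltransferase gene, had 5.32, 11.4, 6.67 and 16.4 CPM in the same order, so that the pools stood further apart than the tissues. Its change was 0.45 (95% interval −1.09 to 2.00, adjusted p = 0.665), which was −0.11 without C1 and −0.27 without T2. The ratio of XYLT1 counts to XYLT2 counts was lower in carcinoma by 0.97 on the log2 scale in pool 1 and by 0.96 in pool 2, although its values overlapped between the tissues.

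B3GAT3, which completes the linker with glucuronic acid, had 3.73 CPM in C1 and 10.2 in C2, against 7.38 in T1 and 17.5 in T2. The change of 0.87 (95% interval −0.85 to 2.59, adjusted p = 0.453) had a wide interval, with pool 2 higher than pool 1 in each tissue. It was 0.17 without C1 or without T2, 1.68 without C2 and 1.38 without T1, and none of these passed. With the replicate block it was 0.92 (adjusted p = 4.23e-06), still under 2-fold. B4GALT7, which adds the first galactose of the linker, changed by 0.41 (95% interval −1.14 to 1.95, adjusted p = 0.700). The 9 enzyme genes with a deposited length under 20000 bases, a limit set after the values had been seen, had a median log2 offset of pool 2 over pool 1 of 0.996 in control and 0.80 in carcinoma, and the 27 longer genes one of −0.13 and 0.02. Across the 36 genes the offset had a Pearson correlation with the log10 of the length of −0.50 in control and −0.46 in carcinoma, against −0.14 and −0.15 over all genes, each a description over genes of the same libraries. The carcinoma to control fold change had one of 0.01 with the length over the 36 genes.

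None of the 4 hyaluronan genes measured was called (edgeR, 0 in either direction at an unadjusted p under 0.05, and 0 by DESeq2), and none was under the replicate block. HAS2, the gene of the main hyaluronan synthase of stroma, had 25.5 CPM in C1 and 22.9 in C2, against 22.0 in T1 and 20.2 in T2. The tissues lay close together, at a change of −0.20 (95% interval −0.69 to 0.30, adjusted p = 0.552), so a 2-fold change lies outside the interval. HAS3, another synthase gene, had 6.57, 13.2, 5.27 and 9.22 CPM in the same order, a change of −0.47 (95% interval −1.74 to 0.80, adjusted p = 0.583). The hyaluronidase genes did not pass either. HYAL1, of the lysosomal enzyme, had 5.55, 7.42, 4.46 and 5.35 CPM, a change of −0.40 (95% interval −1.22 to 0.42, adjusted p = 0.464), and HYAL2, of the membrane-anchored one, changed by 0.15 (95% interval −1.40 to 1.70, adjusted p = 0.898). For HAS3, HYAL1 and HYAL2 a fall of 2-fold lies within the interval.

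Of the 2 remaining genes, which belong to the sulfated HNK-1 glycan rather than to a glycosaminoglycan, CHST10 and B3GAT2 lay on opposite sides of control and neither was called (edgeR, 1 higher and 1 lower at an unadjusted p under 0.05, and 0 by DESeq2). CHST10, the sulfotransferase gene, had 36.0 CPM in C1 and 32.9 in C2, against 53.7 in T1 and 54.4 in T2, a change of 0.65 (standard error 0.14, 95% interval 0.28 to 1.01, adjusted p = 0.0457). Its adjusted p was 0.137 to 0.217 with any 1 library left out. B3GAT2, a glucuronyltransferase gene, had 5.79, 5.33, 2.86 and 3.57 CPM in the same order, a change of −0.85 (95% interval −1.63 to −0.06, adjusted p = 0.152).

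**Figure D4:**
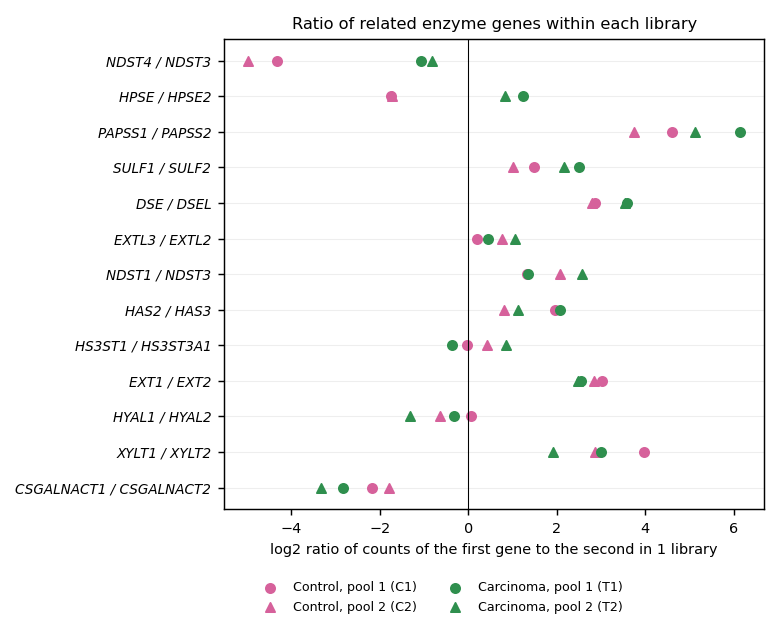
Log2 ratio of the counts of 13 pairs of related enzyme genes within each library, with 1 symbol per library (control pink, carcinoma green, circles for pool 1, triangles for pool 2). In 7 pairs the tissues do not overlap, the widest being NDST4 to NDST3, at −4.33 and −4.97 in control and −1.07 and −0.81 in carcinoma. NDST4 is in the count tables only through its carcinoma counts, and PAPSS2 only through its control counts.

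Genes of the same enzymatic step were set side by side by their ratio within each library, which needs no scaling between libraries. Of 13 pairs of related genes, 5 had a higher and 2 a lower ratio in both carcinomas than in both controls, and 6 overlapped. Among single genes 57.6% showed no overlap, but no share over pairs of genes was computed, so the pairs have no like share beside them. The 5 were NDST4 to NDST3, HPSE to HPSE2, PAPSS1 to PAPSS2, SULF1 to SULF2 and DSE to DSEL, and the 2 were CSGALNACT1 to CSGALNACT2 and EXT1 to EXT2. Of these genes NDST4 is in the count tables through carcinoma alone and PAPSS2 through control alone. The DSE to DSEL ratio varied little within a tissue, at 7.27 and 6.92 in the controls and 11.9 and 11.6 in the carcinomas. With 2 libraries in each tissue the smallest two-sided p of an exact permutation test is 0.333, so no pair was tested, and NDST3 serves in 2 of the pairs.

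Other genes of the pathway were read in 5 lists. Over all genes 4.62% were called higher and 5.24% lower, and with the replicate block 7.09% and 6.83%. Of 12 measured core protein genes of chondroitin sulfate proteoglycans 5 were called higher, 1 was lower and 6 did not pass, with a median log2 fold change of 1.65. With the replicate block 7 were higher and 2 lower, the additions being BGN and CSPG4 on the higher side and SRGN on the lower. CSPG5, a chondroitin sulfate proteoglycan gene best known from brain, had 4.30 CPM in C1 and 6.49 in C2, against 63.9 in T1 and 63.6 in T2, a change of 3.64 (standard error 0.26, adjusted p = 0.00259). SPOCK3, of the testican family, had 20.3, 17.8, 64.6 and 60.1 CPM in the same order, a change of 1.70 (standard error 0.16, adjusted p = 0.00461). ACAN, of aggrecan, the main chondroitin sulfate carrier of cartilage, changed by 7.34 (standard error 0.34, adjusted p = 0.00182), and EPYC and SPOCK1 were the other genes called higher. Of the genes called higher, ACAN, CSPG5, EPYC and SPOCK1 reach 128 counts only in carcinoma, as does CSPG4. These calls and the median of 1.65 thus rest in part on genes that are in the count tables through carcinoma alone. DCN, of decorin, a small stromal proteoglycan, had 1192, 1011, 141 and 111 CPM and was the one called lower, at −3.13 (standard error 0.18, adjusted p = 0.00187).

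Of 10 measured core protein genes of heparan sulfate proteoglycans 1 was called higher, 1 was lower and 8 did not pass, with a median of 0.11. With the replicate block HSPG2, of the basement membrane proteoglycan perlecan, was lower too (−1.16, adjusted p = 5.19e-41), which made 2 lower. The pair called without the block belonged to the same family, the glypicans, which are anchored to the cell surface. GPC4 had 12.5 CPM in C1 and 8.81 in C2, against 34.8 in T1 and 31.8 in T2, a change of 1.61 (standard error 0.25, adjusted p = 0.0163). Without T1 its adjusted p was 0.0615. GPC3 had 35.5, 32.2, 2.15 and 2.08 CPM in the same order, a change of −3.99 (standard error 0.24, adjusted p = 0.00195), and is in the count tables through control alone. SDC2, of a syndecan, changed by −0.94 (standard error 0.12, adjusted p = 0.0100), under 2-fold, and was called lower without C1 (−1.01) or without T2 (−1.04). TGFBR3, of betaglycan, changed by −0.22 (adjusted p = 0.267).

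Of 10 measured genes for the binding and turnover of hyaluronan 1 was called higher, 3 were lower and 6 did not pass, with a median of −0.10. With the replicate block 4 were lower, the addition being STAB2, of an endothelial scavenger receptor for hyaluronan (−1.09, adjusted p = 4.53e-05). HAPLN1, of the protein that links aggrecan to hyaluronan, had 11.6 CPM in C1 and 6.95 in C2, against 300.5 in T1 and 231 in T2, a change of 4.75 (standard error 0.29, adjusted p = 0.00196). ITIH5 and ITIH2, whose products are heavy chains that attach to hyaluronan, changed by −3.03 (standard error 0.15, adjusted p = 0.00182) and −3.88 (standard error 0.37, adjusted p = 0.00467). ITIH2 is in the count tables through control alone, as is STAB2. LYVE1, the hyaluronan receptor of lymphatic endothelium, changed by −2.98 (standard error 0.29, adjusted p = 0.00496) and is itself 1 of the lymphatic markers counted above.

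In the lysosomal degradation list none of 10 measured genes was called (edgeR, 1 higher and 0 lower at an unadjusted p under 0.05, and 0 by DESeq2), with a median of 0.19. NAGLU, which takes part in the breakdown of heparan sulfate, had 6.77 CPM in C1 and 12.7 in C2, against 16.3 in T1 and 27.7 in T2, a change of 1.19 (adjusted p = 0.158), and with the replicate block it was called higher at 1.22 (adjusted p = 3.04e-15). ARSB, ARSK and HGSNAT, of the same list, changed by 0.29 (adjusted p = 0.209), −0.51 (adjusted p = 0.374) and 0.21 (adjusted p = 0.383). Of 15 measured genes for sugar supply, sulfate transport and the linker kinase none was called either (edgeR, 6 higher and 1 lower at an unadjusted p under 0.05, and 0 by DESeq2), with a median of 0.36. FAM20B, the linker xylose kinase gene, had a change of 0.65 (standard error 0.12, adjusted p = 0.0272) and SLC35D1, a transporter gene for nucleotide sugars into the secretory pathway, one of 0.52 (standard error 0.11, adjusted p = 0.0457), and the adjusted p of both was above 0.05 with any 1 library left out. SLC26A2, the sulfate transporter gene, changed by 0.87 (adjusted p = 0.0620), which without C2 was 1.13 (adjusted p = 0.0260), and UAP1 by 0.42 (adjusted p = 0.0650).

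**Figure D5:**
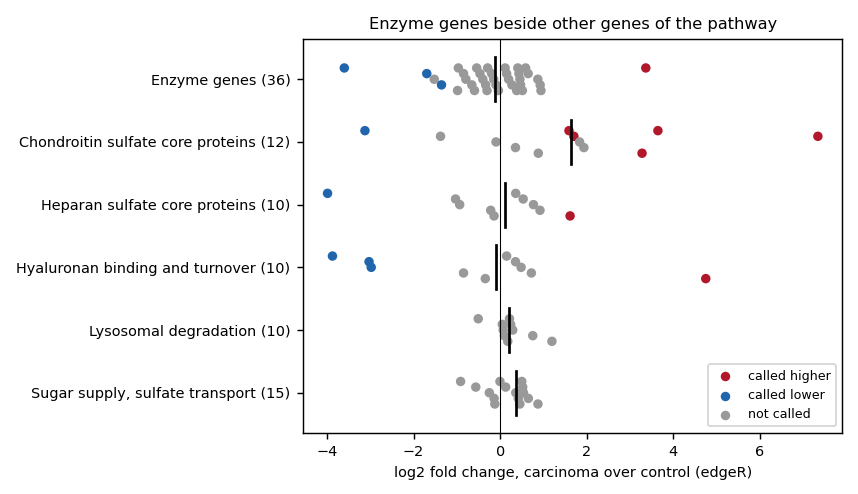
Log2 fold change between carcinoma and control (above 0 where carcinoma is higher) for the 36 enzyme genes and for 5 lists of other genes of the pathway, 1 point per gene (red called higher, blue called lower, grey not called), with the median of each list as a black bar and the number of measured genes in brackets. The core protein list of chondroitin sulfate proteoglycans has its median at 1.65 and the enzyme genes at −0.12. ACAN, CSPG5, EPYC, SPOCK1 and CSPG4 of that list are in the count tables only through their carcinoma counts.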

How the data were processed

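Whole-number gene counts of 4 libraries were used as deposited, with no normalization by the authors. The paper's methods name TopHat2 and HTSeq at default settings, whereas FastQC, STAR, featureCounts and DESeq2 stand in the processing notes of the submitters. As no source used here gives the genome build, no coordinates are printed. The length column, which the authors deposited beside the counts, lies near the gene span with introns, at a median ratio of 0.967 to the RefSeq span (UU_Cfam_GSD) over 35 matched enzyme genes, 15 of which overlap another RefSeq feature.

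The main test was the quasi-likelihood test of edgeR 4.0.16 under R 4.3.3, after filterByExpr and TMM and without a block, DESeq2 1.42.0 was an alternative, and figures were drawn with matplotlib 3.10.9. All 11277 genes passed the filter. Standard errors are the absolute log2 fold change over the square root of F, and 95% intervals use the test's degrees of freedom. Log2 CPM values within pools used a prior count of 2. The fit was tested on counts simulated at the depths of these libraries and the common dispersion of the main fit, without a pool offset. It called 34.3% of changes set at 2-fold, 98.5% of those at 4-fold and 100% of those at 8-fold. A change near 2-fold can thus be missed. Alternatives were DESeq2 size factors, no filter, a minimum of 10 counts per library, the replicate block, DESeq2, and leaving out each library.

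Same-numbered pools share dogs by the study's account. The correlation of how they deviate from their group means was 0.782 over all genes and 0.898 over the enzyme genes. These pools are also alike in depth, so shared dogs and shared depth cannot be told apart in this correlation. The members, lists and pairs were chosen with earlier results of these data known. Named were all called enzyme genes, the 3 uncalled ones of each branch with the smallest adjusted p, the main enzymes of each step, and the 4 genes with the smallest adjusted p in each pathway list; the other members, and the pathway genes that only the block called, were named with their values already seen.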

Additional observations from a re-analysis of the deposited data

How the results depend on the processing

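NDST4 and HPSE2 kept their calls in every alternative that tested them. When each library had to hold at least 10 counts, 33 of the 36 enzyme genes were tested, since this filter removes NDST4, HS3ST1 and HS3ST3A1. Of the 33, 0 were called higher and 2 lower, CSGALNACT1 and HPSE2, the latter being the 1 heparan gene called. Of the 10804 genes tested in this setting 425 were called higher and 425 lower. A replicate block by pool gave 800 higher genes in all, and among the enzyme genes the block changed no call but that of HS3ST3A1. With any fold change accepted, 5 enzyme genes were higher, 4 chondroitin genes passed and 782 of all genes were higher. Leaving out 1 library gave 1 to 2 enzyme genes higher, 1 to 3 lower, 0 to 2 chondroitin genes called, 2 heparan genes called, and 342 (without C1) to 509 higher and 421 to 548 lower genes in all. CHST11 joined NDST4 on the higher side without C2, and HPSE2 was the 1 gene lower without C1 or without T2. Uncalled changes turned sign for XYLT2 (−0.11 without C1, −0.27 without T2, in a range of −0.27 to 1.05) and for HAS3 (0.078 without C2, in a range of −0.99 to 0.078). The cause was not tested. With C1 or T1 left out, the tissue concerned is represented by its shallow pool alone, and the lone library is assumed to vary like the other group. At 3236218 to 4027367 counts in pool 2, genes under 10 CPM have few counts there. The intervals of HYAL2, XYLT2 and B4GALT7 hold a 2-fold change in either direction, each at a standard error of 0.60. NDST4, with 3 counts in C2 and 33 in T2, had one of 0.38. In HYAL2, XYLT2 and B4GALT7 pool 2 lay above pool 1 in both tissues, by 1.08 to 1.28 on the log2 scale. The part of depth or of this offset in the intervals was not tested.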
